A study of Mus musculus with 8 samples.

Results

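The surface of the stomach is covered by pit cells, also called surface mucous cells, and 8 genes known from these cells, other than mucins, trefoil factors and gastrokines, were followed in the mouse corpus: Psca, Capn8, Capn9, Sult1c2, Vsig1, Foxq1, Ctsz and Tspan8. The members were chosen by gene symbol. All 8 were among the 54532 genes of the deposited count table, and all 8 were among the 15862 genes that passed a filter on low counts. RNA came from whole corpus, the part of the stomach whose glands make acid and pepsinogen, and the mice had a mixed background of C57BL/6 X CD1. The 4 mutants were Six2-Cre+/- PKAcaR fl/wt and the 4 controls were Six2-Cre+/- PKAcaR wt/wt, so that every animal carried the Cre transgene, driven by the promoter of Six2, and the mutants alone carried 1 floxed copy of the allele. No animal was treated, their age is not given in the sources used here, and the design text calls the libraries of a group biological replicates. The comparison was mutant over control.

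Pit cells are born in the isthmus of the gastric gland, move up to the surface while they mature, and are shed within days. They secrete a mucus gel that shields the epithelium from acid and pepsin, and their surface carries glycosylated and lipid-anchored proteins. Protein kinase A, whose catalytic alpha subunit the PKAcaR allele alters, relays cyclic AMP signals that in the stomach include those driving acid secretion. In whole corpus RNA, fewer pit cells and less RNA per pit cell cannot be told apart.

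Library totals were 18184281 to 23814720 reads in mutants and 18942308 to 22814152 reads in controls. Prkaca, the gene of the altered subunit, was at 36.8 to 40.7 CPM in mutants and 77.1 to 86.0 CPM in controls, in CPM, that is reads relative to the TMM-scaled size of the library. Marker sums for the corpus were 277 to 3714 CPM in mutants and 17451 to 23761 CPM in controls for 6 parietal cell genes, and 996 to 41618 CPM in mutants and 298410 to 533948 CPM in controls for 5 chief cell genes. For 5 mucous neck cell genes they were 9377 to 26841 CPM in mutants and 2387 to 6203 CPM in controls. All 6 smooth muscle markers were called lower, with sums of 233 to 750 CPM in mutants and 2604 to 3566 CPM in controls, and the part of these shifts in the results below was not tested. Mutant 2 was the lowest mutant in 7 of the 8 genes and the highest in Ctsz, and the 8 genes and the counts over gene lists are also given without it. It was singled out by its values in these same genes, which limits how p-values without it can be read. Leaving it out gave 5400 genes called, against 3208 with all libraries. Mutant 3 and control 3 held squamous keratin and cornified cell transcripts, with a sum over 8 markers of 704 and 268 CPM, against 1.50 to 3.13 CPM in the 6 other libraries.

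Of the 8 genes, Ctsz rose in the mutant corpus and no gene fell, by edgeR's quasi-likelihood test with Benjamini-Hochberg adjustment over all genes and a threshold of 0.05. Over all genes tested 9.39% rose and 10.8% fell. With mutant 2 left out, Ctsz rose and Psca, Capn9 and Vsig1 fell, while over all genes 15.2% rose and 18.3% fell. None of the 8 genes was lower at an unadjusted p under 0.05 with all libraries, and DESeq2 and limma-voom each found 1 lower, which was Psca in both. Over all genes DESeq2 called 4694 of 15291 and limma-voom 5668 of 15862 in either direction. DESeq2 without mutant 2 called 1 of the 8 higher and 3 lower, among 16.6% and 19.7% of all genes. The median log2 fold change of the 8 genes was -0.49, beside 0.07 over all genes tested, and without mutant 2 it was -0.16, beside 0.02. In CPM all 4 mutants lay above all 4 controls in Ctsz alone, and below all 4 controls in Psca, Capn9 and Vsig1. Groups that did not overlap made up 14.2% of all tested genes in the higher direction and 16.1% in the lower.

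**Figure D1:**
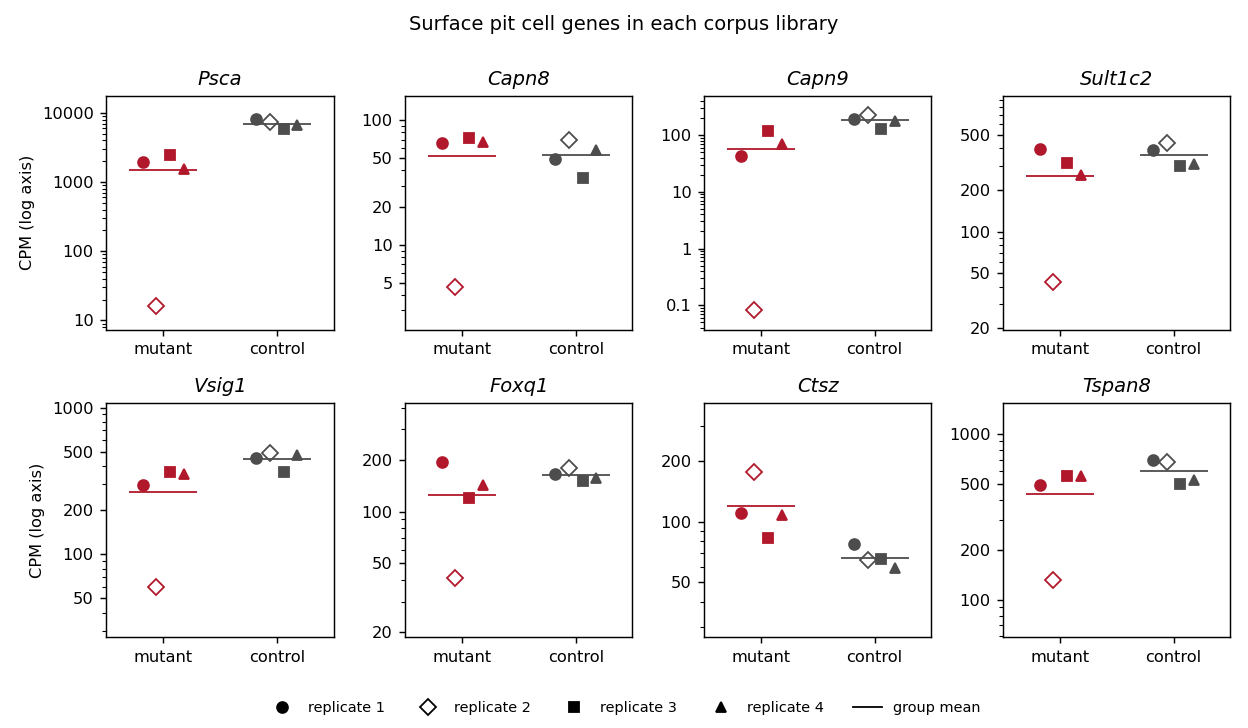
Each panel plots CPM on a log axis for 1 gene in the 4 mutant and the 4 control libraries, with symbols for the replicate number and a line at the group mean. Mutant 2, the open diamond at left, lies lowest of the mutants in 7 panels and highest in the Ctsz panel.

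Psca encodes prostate stem cell antigen, a small surface protein of the Ly6 family that is held in the membrane by a lipid anchor (ENSMUSG00000022598, chr15:74714839-74717069, plus strand, in the count table, GRCm38). Mutants 1 to 4 held 1921, 16.2, 2493 and 1527 CPM, and controls 1 to 4 held 8092, 7413, 5817 and 6585 CPM. The 4 mutants thus ran from 395 to 57827 reads, and the highest mutant was still below the lowest control. The means were 1489 ± 1059 CPM in mutants and 6977 ± 988 CPM in controls (SD, n = 4 each). The log2 fold change was -2.23 with a standard error (SE) of 1.03, which was not called (edgeR adjusted p = 0.158). Without mutant 2 Psca fell by 1.82 on the log2 scale (SE 0.22, edgeR adjusted p = 0.000151), and mutants 1, 3 and 4 together held 28.4% of the control mean. Psca was lower under all 23 alternative settings, with log2 fold changes of -3.56 to -1.15 and adjusted p of 5.87e-22 to 0.284. It was called in 6 of them, which were DESeq2 and limma-voom with all libraries and every fit with mutant 2 left out. The smallest adjusted p came from DESeq2 without mutant 2. Of the libraries with squamous transcripts, mutant 3 was the highest mutant in Psca and control 3 the lowest control, and the part of those transcripts in Psca was not tested.

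Per length of transcript, Psca stood at the top of the 8 genes in both groups, at 1721 ± 1226 FPKM in mutants and 8040 ± 1128 FPKM in controls (SD, n = 4 each). In controls the order of mean FPKM ran on through Tspan8 at 349, Sult1c2 at 192, Vsig1 at 159, Capn9 at 74.2, Ctsz at 45.7, Foxq1 at 33.4 and Capn8 at 13.8. In controls the ranges of neighbours in that order overlapped between Sult1c2 and Vsig1 and between Capn9 and Ctsz, and the 5 other neighbouring pairs were apart. In mutants Ctsz, at 82.5 ± 27.6 FPKM, stood above Capn9, at 23.4 ± 20.2 FPKM. Among mutants the ranges of Ctsz and Foxq1, at 25.5 ± 13.0 FPKM, were apart, and every other pair of neighbours overlapped.

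Ly6-family relatives of Psca were called in both directions. Of 12 genes listed, 9 were tested, 2 rose, 1 fell and 6 were not called, beside 9.39% and 10.8% of all genes, and without mutant 2 there were 3 higher and 2 lower, beside 15.2% and 18.3%. The list had a median log2 fold change of -0.21, beside 0.07 over all genes. Ly6d, a surface gene best known from squamous epithelium and lymphoid precursors, rose to 266 ± 201 CPM in mutants, against 39.6 ± 8.63 CPM in controls (log2 fold change 2.75, SE 0.54, edgeR adjusted p = 0.0116). Ly6c1, known from endothelium and leukocytes, fell to 19.5 ± 3.77 CPM in mutants, against 51.9 ± 6.19 CPM in controls (log2 fold change -1.41, SE 0.17, edgeR adjusted p = 0.00176). Without mutant 3 and control 3 the call on Ly6d was lost (log2 fold change 2.77, edgeR adjusted p = 0.0544), in a fit that called 1410 genes, against 3208 with all libraries. Ly6d was at 544, 78.5, 173 and 268 CPM in mutants 1 to 4, and at 48.4, 39.7, 27.8 and 42.3 CPM in controls 1 to 4. The part of squamous transcripts in Ly6d was not tested. The call on Ly6c1 was lost under the epithelium scaling, in which libraries are scaled to Epcam, Cdh1, Krt8 and Krt18 (-1.31, edgeR adjusted p = 0.114). Without mutant 2 that call was kept under the same scaling (-1.89, edgeR adjusted p = 2.16e-06). Ly6e also rose (log2 fold change 0.76) and was named after its values were seen.

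Capn8 and Capn9 encode 2 calpains, calcium-activated cysteine proteases, that are known to be concentrated in the gastrointestinal tract and to act together as a gastric calpain; mice lacking either are known to be more prone to ethanol-induced gastric injury. They lie on different chromosomes, Capn8 at chr1:182565007-182632352 (ENSMUSG00000038599) and Capn9 at chr8:124576111-124618731 (ENSMUSG00000031981), both on the plus strand. Since their levels parted in the mutants, the 250 bases before each RefSeq start (GRCm38.p6, chr1:182564757-182565006 and chr8:124575861-124576110, plus strand) are shown, with motif matches in capitals.
Capn8: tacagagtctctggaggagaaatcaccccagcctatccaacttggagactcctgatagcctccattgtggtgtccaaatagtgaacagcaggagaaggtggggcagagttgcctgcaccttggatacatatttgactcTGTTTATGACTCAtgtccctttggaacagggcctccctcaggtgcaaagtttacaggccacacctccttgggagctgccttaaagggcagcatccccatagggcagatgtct
Capn9: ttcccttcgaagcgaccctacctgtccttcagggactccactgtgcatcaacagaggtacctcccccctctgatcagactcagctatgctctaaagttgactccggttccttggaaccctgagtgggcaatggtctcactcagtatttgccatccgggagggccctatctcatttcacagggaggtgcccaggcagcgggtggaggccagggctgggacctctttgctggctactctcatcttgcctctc
Both strands were searched for the cyclic AMP response element TGACGTCA and its core TGACG, the AP-1 site TGACTCA, the forkhead core TGTTTA, the GC box GGGCGG and the TATA box TATAAA, of which TGACG lies inside TGACGTCA. The capitals in Capn8 are a forkhead core 112 bases before the start and, directly after it, an AP-1 site 106 bases before the start. In Capn9 none of these letters occurred in the window. Over 32851 RefSeq promoters cut to the same length, 12% held the forkhead core, 4.46% the AP-1 site, 17.8% TGACG and 1.55% TGACGTCA. The matches are a description of the letters and not of binding. Of the 8 genes, 6 had a promoter in the RefSeq table. Neither TGACG nor TATAAA occurred in any of those 6 windows, and Sult1c2, Vsig1 and Tspan8 held the forkhead core as well.

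Capn8 was at 65.3, 4.62, 71.6 and 67.1 CPM in mutants 1 to 4, and at 48.5, 69.1, 34.3 and 57.4 CPM in controls 1 to 4. Mutants 1, 3 and 4 were close together, above 3 of the 4 controls and on both sides of control 2, while mutant 2 was far below every other library. Over all libraries the log2 fold change was -0.00 (SE 0.66, edgeR adjusted p = 0.996), and without mutant 2 it was 0.38 (SE 0.19, edgeR adjusted p = 0.166). With column totals as library sizes and without mutant 2, Capn8 was higher by 1.04 (SE 0.23, edgeR adjusted p = 0.00233), and no call was made on it in the 22 other settings.

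Capn9 was at 41.9, 0.0818, 117 and 68.8 CPM in mutants 1 to 4, and at 193, 225, 127 and 178 CPM in controls 1 to 4. All 4 mutants lay below all 4 controls, by a small step between mutant 3 and control 3. Mutant 2 held 2 reads of Capn9, against 1253 to 2706 in the 3 other mutants. Those 2 reads put it at 0.0452% of the control mean, with an exact Poisson 95% interval of 0.00547% to 0.163% that covers counting error only. Its log2 fold change was -1.67 (SE 1.13, edgeR adjusted p = 0.318). Without mutant 2 Capn9 fell by 1.26 (SE 0.36, edgeR adjusted p = 0.0333), and it was not called with column totals in that fit (log2 fold change -0.59, SE 0.38, edgeR adjusted p = 0.197). Across the 23 alternatives the adjusted p of Capn9 was 9.82e-05 to 0.450. It was called lower in 3, all of them with mutant 2 left out, and in none with all libraries.

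The ratio of Capn8 to Capn9 reads within a library does not depend on how libraries are scaled. Its log2 value was 0.64, 5.50, -0.70 and -0.04 in mutants 1 to 4, and -1.99, -1.70, -1.89 and -1.64 in controls 1 to 4. Every mutant ratio exceeded every control ratio, with means of 1.35 ± 2.82 in mutants and -1.80 ± 0.16 in controls (SD, n = 4 each). The difference of 3.16 gave p = 0.0286 in a two-sided exact permutation test, the smallest that 70 assignments allow, and 0.0286 after adjustment over the 2 ratios tested. Mutant 2 set the size of that difference, which was 1.77 without it (exact permutation p = 0.0286). Without any 1 control the exact permutation p was 0.0857.

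Of 14 further genes of the calpain system, 12 were tested. With all libraries 0 were called in either direction by edgeR, beside 9.39% and 10.8% of all genes. At an unadjusted p under 0.05 there were 1 higher and 0 lower. DESeq2 and limma-voom called 0 of them, beside 4694 of 15291 and 5668 of 15862 of all genes in either direction. Without mutant 2 there was 1 higher and 0 lower, beside 15.2% and 18.3% of all genes. With column totals and all libraries 6 were higher, among 59.3% of all genes. Their median log2 fold change was 0.13, beside 0.07 over all genes. The smallest p belonged to Capn7, an atypical calpain (log2 fold change 0.31, SE 0.13, edgeR adjusted p = 0.116). Capns1, the small regulatory subunit shared by the conventional calpains, was at 248 to 311 CPM in mutants and 269 to 325 CPM in controls.

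Sult1c2 encodes a cytosolic sulfotransferase, which moves a sulfonate group from the donor PAPS to small molecules (ENSMUSG00000023122, chr17:53829637-53846339, minus strand). It was at 394, 42.9, 314 and 257 CPM in mutants 1 to 4, and at 387, 439, 296 and 309 CPM in controls 1 to 4. Mutants 1 and 3 lay within the range of the controls, mutant 4 just below it and mutant 2 far below it. The log2 fold change was -0.51 (SE 0.54, edgeR adjusted p = 0.535), and -0.15 without mutant 2 (SE 0.18, edgeR adjusted p = 0.549). Of 13 other sulfotransferase and PAPS supply genes, 11 were tested, 1 rose and 2 fell, beside 9.39% and 10.8% of all genes, and without mutant 2 there was 1 higher and 3 lower, beside 15.2% and 18.3%. Papss1, a PAPS synthase, rose to 104 ± 10.9 CPM in mutants, against 57.6 ± 5.22 CPM in controls (log2 fold change 0.85, SE 0.11, edgeR adjusted p = 0.00265). Its call was lost under the epithelium scaling with all libraries (0.86, edgeR adjusted p = 0.122) and kept there without mutant 2 (0.51, edgeR adjusted p = 0.0119). Sult4a1, best known from brain, fell to 0.386 ± 0.232 CPM in mutants, against 3.23 ± 0.755 CPM in controls (log2 fold change -3.05, SE 0.47, edgeR adjusted p = 0.00440). Sult1a1 was the other that fell (log2 fold change -1.07), named after its values were seen.

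Vsig1 encodes a junctional immunoglobulin-domain protein of the stomach; mice without it are known to form squamous tissue within the glandular stomach (ENSMUSG00000031430, chrX:140907608-140939472, plus strand). It was at 295, 59.8, 364 and 354 CPM in mutants 1 to 4, and at 456, 489, 365 and 473 CPM in controls 1 to 4. The groups were apart only by the step from mutant 3, at 363.9 CPM, to control 3, at 364.5 CPM, the 2 libraries with squamous transcripts. For Vsig1 the log2 fold change was -0.73 (SE 0.47, edgeR adjusted p = 0.298). Without mutant 2 Vsig1 fell by 0.40 (SE 0.14, edgeR adjusted p = 0.0477), whereas with column totals in that fit it was 0.27 (SE 0.18, edgeR adjusted p = 0.192). Over 23 alternatives the adjusted p lay between 0.000643 and 0.921. Vsig1 was called lower in 3 of them, all with mutant 2 left out.

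Among 10 other junctional immunoglobulin-domain and scaffold genes 2 rose and 1 fell by the threshold, beside 9.39% and 10.8% of all genes. Without mutant 2 there were 3 higher and 5 lower, beside 15.2% and 18.3%. Gpa33, a junctional antigen best known from intestinal epithelium, rose to 108 ± 33.6 CPM in mutants, against 8.93 ± 2.57 CPM in controls (log2 fold change 3.60, SE 0.30, edgeR adjusted p = 0.000700). Jam2, a junctional adhesion molecule of endothelium, fell to 8.05 ± 1.24 CPM in mutants, against 20.5 ± 2.71 CPM in controls (log2 fold change -1.35, SE 0.16, edgeR adjusted p = 0.00193). Its call was lost under the epithelium scaling with all libraries (-1.37, edgeR adjusted p = 0.0626) and kept there without mutant 2 (-1.71, edgeR adjusted p = 1.36e-05). Tjp1, a tight junction scaffold, was the other that rose (log2 fold change 0.53), named after its values were seen.

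Foxq1 encodes a forkhead transcription factor that is known in mouse stomach to be needed for Muc5ac, the gel-forming mucin of pit cells (ENSMUSG00000038415, chr13:31556134-31560976, plus strand). It was at 194, 41.1, 120 and 143 CPM in mutants 1 to 4, and at 165, 180, 151 and 157 CPM in controls 1 to 4. Mutant 1 lay above every control and mutants 2, 3 and 4 below every control. A gene annotated on the opposite strand within Foxq1 held 0 reads. The log2 fold change was -0.39 (SE 0.39, edgeR adjusted p = 0.498), and -0.10 without mutant 2 (SE 0.15, edgeR adjusted p = 0.653).

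Muc5ac stood at 24.0%, 0.997%, 42.6% and 32.6% of the control mean in mutants 1 to 4, and Foxq1 at 119%, 25.2%, 73.4% and 87.6%. The log2 ratio of Foxq1 to Muc5ac reads was -3.17, -0.82, -4.69 and -4.05 in mutants 1 to 4, and -5.37, -5.43, -5.46 and -5.64 in controls 1 to 4. All 4 mutant ratios exceeded all 4 control ratios, with means of -3.18 ± 1.69 in mutants and -5.47 ± 0.12 in controls (SD, n = 4 each). The difference was 2.29 (two-sided exact permutation test, p = 0.0286, adjusted p = 0.0286 over the 2 ratios), and 1.50 without mutant 2. Without any 1 control the exact permutation p was 0.0571.

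**Figure D2:**
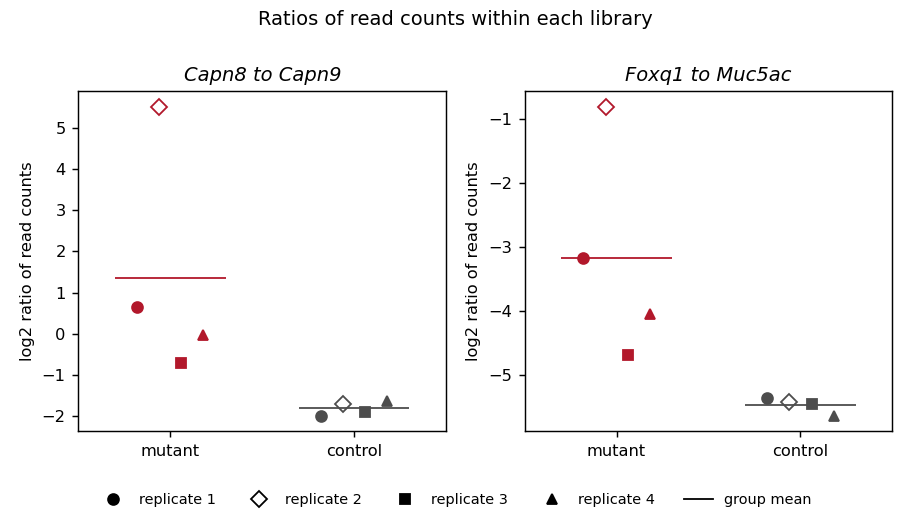
The panels plot the log2 ratio of read counts in each of the 4 mutant and 4 control libraries for Capn8 to Capn9 and for Foxq1 to Muc5ac, with a line at the group mean. In both panels every mutant lies above every control, and mutant 2, at 5.50 and -0.82, is the highest point.

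With all libraries 4 of 12 other epithelial transcription factors rose and none fell (edgeR, beside 9.39% and 10.8% of all genes). There were 2 lower at an unadjusted p under 0.05, 1 lower by DESeq2 and 2 lower by limma-voom. Over all genes DESeq2 called 4694 of 15291 and limma-voom 5668 of 15862 in either direction. Without mutant 2 there were 6 higher and 4 lower, beside 15.2% and 18.3% of all genes. Ehf, an epithelial ETS factor, rose to 125 ± 14.3 CPM in mutants, against 36.1 ± 4.21 CPM in controls (log2 fold change 1.79, SE 0.13, edgeR adjusted p = 0.000536). The 3 others that rose were Klf5, Spdef and Sox2, named after their values were seen, with log2 fold changes of 1.20, 1.04 and 1.30.

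Tspan8 encodes a tetraspanin, a membrane protein that organises other surface proteins into patches (ENSMUSG00000034127, chr10:115816832-115849893, plus strand). It was at 493, 130, 553 and 553 CPM in mutants 1 to 4, and at 696, 676, 495 and 528 CPM in controls 1 to 4. Mutants 3 and 4 lay within the range of the controls, mutant 1 just below it and mutant 2 far below. The log2 fold change was -0.47 (SE 0.41, edgeR adjusted p = 0.440), and -0.17 without mutant 2 (SE 0.15, edgeR adjusted p = 0.431). An antisense gene lies across the whole of Tspan8, but held at most 22 reads in a library. With all libraries 4 of 13 other tetraspanins rose and none fell (edgeR, beside 9.39% and 10.8% of all genes). There were 0 lower at an unadjusted p under 0.05, 0 lower by DESeq2 and 3 lower by limma-voom. Over all genes DESeq2 called 4694 of 15291 and limma-voom 5668 of 15862 in either direction. Without mutant 2 there were 4 higher and 2 lower, beside 15.2% and 18.3%. Tspan6 rose to 35.6 ± 6.50 CPM in mutants, against 7.40 ± 2.01 CPM in controls (log2 fold change 2.27, SE 0.23, edgeR adjusted p = 0.00132). Tspan3, Tspan14 and Cd9, named after their values were seen, rose with log2 fold changes of 1.55 for Tspan3, 1.04 for Tspan14 and 0.73 for Cd9.

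Ctsz encodes cathepsin Z, a lysosomal cysteine protease that trims single residues from the carboxyl end of proteins and is known from macrophages as well as epithelium (ENSMUSG00000016256, chr2:174427493-174439039, minus strand). It alone of the 8 genes was higher in every mutant, and the 250 bases before its RefSeq start (GRCm38.p6, chr2:174439040-174439289, minus strand) are shown for comparison with the calpains, with motif matches in capitals.
Ctsz: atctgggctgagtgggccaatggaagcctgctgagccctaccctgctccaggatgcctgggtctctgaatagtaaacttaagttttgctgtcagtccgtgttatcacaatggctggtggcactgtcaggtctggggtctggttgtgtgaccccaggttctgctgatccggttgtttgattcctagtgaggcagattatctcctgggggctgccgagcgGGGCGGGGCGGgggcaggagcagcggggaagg
The capitals are 2 overlapping GC boxes, 32 and 27 bases before the start, a motif in 32.7% of all promoters of that length. None of the other motifs searched occurred there. The annotated spans of Ctsz and Nelfcd, on the opposite strand, share 10 bases, and Nelfcd did not pass the test (log2 fold change 0.00, SE 0.13, edgeR adjusted p = 0.995).

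Ctsz was at 111, 177, 83.2 and 108 CPM in mutants 1 to 4, and at 77.2, 64.5, 65.3 and 58.8 CPM in controls 1 to 4. All 4 mutants lay above all 4 controls, and mutant 2, the lowest mutant for the 7 other genes, was the highest. The means were 120 ± 40.1 CPM in mutants and 66.4 ± 7.76 CPM in controls (SD, n = 4 each). Ctsz rose by 0.85 on the log2 scale (SE 0.22, edgeR adjusted p = 0.0317), and by 0.60 without mutant 2 (SE 0.13, edgeR adjusted p = 0.00455). The call was lost without mutant 1, mutant 4 or any 1 control, at adjusted p of 0.0531 to 0.0870. It was also lost when libraries were scaled to 4 epithelium markers, with all libraries (log2 fold change 1.06, SE 0.50, edgeR adjusted p = 0.262) and without mutant 2 (0.20, SE 0.16, edgeR adjusted p = 0.347), and the adjusted p over 23 alternatives lay between 1.50e-05 and 0.347.

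With all libraries every cathepsin called by edgeR rose, and the gene that fell was a cystatin. Of 12 cysteine cathepsins and cystatins, 11 were tested, 3 rose, 1 fell and 7 were not called, beside 9.39% and 10.8% of all genes, with a median log2 fold change of 0.60, beside 0.07. Without mutant 2 all 12 were tested, with 5 higher and 1 lower, beside 15.2% and 18.3% of all genes. Ctsh, a cathepsin with aminopeptidase activity, rose to 136 ± 34.9 CPM in mutants, against 52.3 ± 5.32 CPM in controls (log2 fold change 1.38, SE 0.19, edgeR adjusted p = 0.00287). Its call was lost under the epithelium scaling with all libraries (1.54, edgeR adjusted p = 0.0706) and kept there without mutant 2 (0.83, edgeR adjusted p = 0.000408). Cst3, the secreted cathepsin inhibitor cystatin C, fell to 191 ± 9.02 CPM in mutants, against 372 ± 66.0 CPM in controls (log2 fold change -0.97, SE 0.15, edgeR adjusted p = 0.00462). Its call was lost under column totals (-0.27, edgeR adjusted p = 0.182) and under the epithelium scaling (-0.91, edgeR adjusted p = 0.126). Without mutant 2 Cst3 was called lower under the epithelium scaling (-1.32, edgeR adjusted p = 1.85e-06) and not called under column totals (-0.27, edgeR adjusted p = 0.178). Ctsc and Ctss, the 2 others that rose, were named after their values were seen, with log2 fold changes of 1.57 and 2.09.

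The sum of 7 macrophage markers was 227 to 1459 CPM in mutants and 212 to 260 CPM in controls. Mutant 2 held the 1459 CPM, and mutants 1, 3 and 4 held 227 to 418 CPM. None of the 7 markers was called by edgeR, and none was at 0 in any library. Mutant 2 was the highest library in both Ctsz, at 177 CPM, and the macrophage sum. Mutant 3 was the lowest mutant in both, with 83.2 CPM of Ctsz, above every control, and a macrophage sum of 227 CPM, inside the range of the controls. The sum of 4 neutrophil markers was 18.9 to 853 CPM in mutants and 1.68 to 2.62 CPM in controls, again highest in mutant 2. The 3 that were tested, S100a8, S100a9 and Csf3r, were all called higher by edgeR, beside 9.39% of all genes. In mutant 3 they were at 6.12, 8.45 and 4.31 CPM, against at most 0.255, 0.255 and 2.31 CPM in controls. Ly6g, which defines neutrophils, was not tested and was at 0 in mutant 3 and in all 4 controls. The part of these cells in the Ctsz result was not tested.

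**Figure D3:**
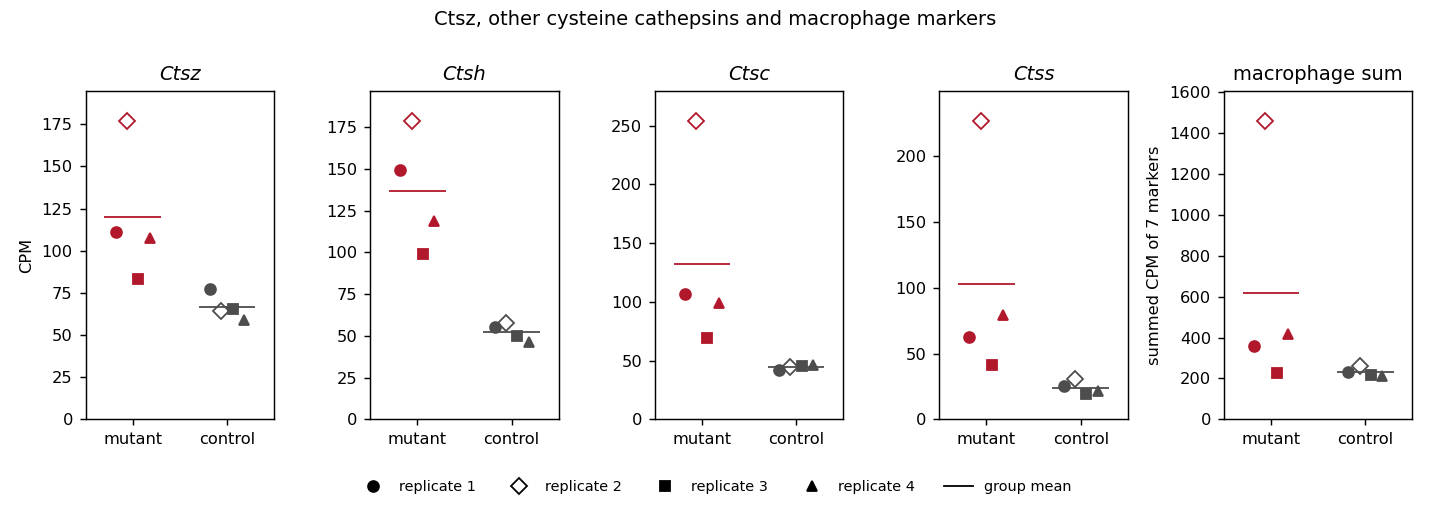
The panels plot CPM on linear axes from 0 for Ctsz, Ctsh, Ctsc and Ctss and the summed CPM of 7 macrophage markers in the 4 mutant and 4 control libraries, with a line at the group mean. In the 4 cathepsin panels every mutant lies above every control, and mutant 2 is the highest point in all 5 panels.

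Mutant 2 held between 0.0452% and 25.2% of the control mean in the 7 genes other than Ctsz. Capn9 was the most depleted, followed by Psca at 0.232%, Capn8 at 8.83%, Sult1c2 at 12.0%, Vsig1 at 13.4%, Tspan8 at 21.8% and Foxq1 at 25.2%, whereas Ctsz stood at 266%. Exact Poisson 95% intervals of the counts, which cover counting error only, put Psca at 0.209% to 0.256%, Capn8 at 7.28% to 10.6% and Foxq1 at 23.6% to 26.8%. The 4 epithelium markers summed to 1539 CPM in mutant 2, against 3247 to 5284 CPM in controls. The adhesion gene Cdh1 stood at 31.1% of the control mean there and the keratins Krt8 and Krt18 at 17.4% and 54.1%. Epcam, an adhesion molecule of epithelial cells, stood at 283%. The part of epithelial content in the low values of mutant 2 was not tested. In mutants 1, 3 and 4 together the 8 genes ran from 28.4% of the control mean in Psca and 41.9% in Capn9 to 130% in Capn8 and 152% in Ctsz.

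Other pit cell genes were counted in the same way, first with all libraries. Of 12 such genes, all tested, 1 rose and none fell (edgeR, beside 9.39% and 10.8% of all genes). There were 2 lower at an unadjusted p under 0.05, 2 lower by DESeq2 and 5 lower by limma-voom. Over all genes DESeq2 called 4694 of 15291 and limma-voom 5668 of 15862 in either direction. The gene that rose was Gcnt1, a glycosyltransferase that branches mucin-type sugar chains (log2 fold change 0.96, SE 0.19, edgeR adjusted p = 0.0109). Its call was lost under the epithelium scaling (edgeR adjusted p = 0.177) and without mutant 3 and control 3 (edgeR adjusted p = 0.0696). Without mutant 2 Gcnt1 was called higher under the epithelium scaling (log2 fold change 0.66, edgeR adjusted p = 0.0324). The 12 genes had a median log2 fold change of -0.62, beside 0.07 over all genes. In mutant 2 Mucl3, a mucin-like surface protein gene, stood at 0.265% of the control mean and Muc5ac at 0.997%.

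The gastrokines Gkn2 and Gkn1 stood at 7.97% and 9.73% of the control mean in mutant 2, and the trefoil factor Tff1 at 10.4%. Anxa10, an annexin of gastric epithelium, was at 16.3%, Krt20, a keratin of mature surface cells, at 17.3%, Cystm1, a small membrane protein gene, at 25.8% and Ctse, an intracellular aspartic protease, at 30.6%. Muc1, a membrane mucin, was at 49.7%, Fut2, a fucosyltransferase, at 57.7% and Gcnt1 at 153%.

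Without mutant 2, 4 of the 12 rose and 5 fell (edgeR, beside 15.2% and 18.3% of all genes). Muc5ac, Mucl3, Gkn1, Gkn2 and Tff1 fell, with log2 fold changes of -1.60 for Muc5ac, -1.51 for Mucl3, -0.95 for Gkn1, -0.85 for Gkn2 and -0.75 for Tff1. Krt20, Gcnt1, Muc1 and Fut2 rose, with log2 fold changes of 1.23 for Krt20, 1.05 for Gcnt1, 0.93 for Muc1 and 0.72 for Fut2. Anxa10 (0.02), Cystm1 (-0.32) and Ctse (-0.43) were not called on that scale. With column totals in that fit Gkn1, Gkn2 and Tff1 were not called (log2 fold changes of -0.28, -0.19 and -0.08), while Muc5ac and Mucl3 still fell.

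**Figure D4:**
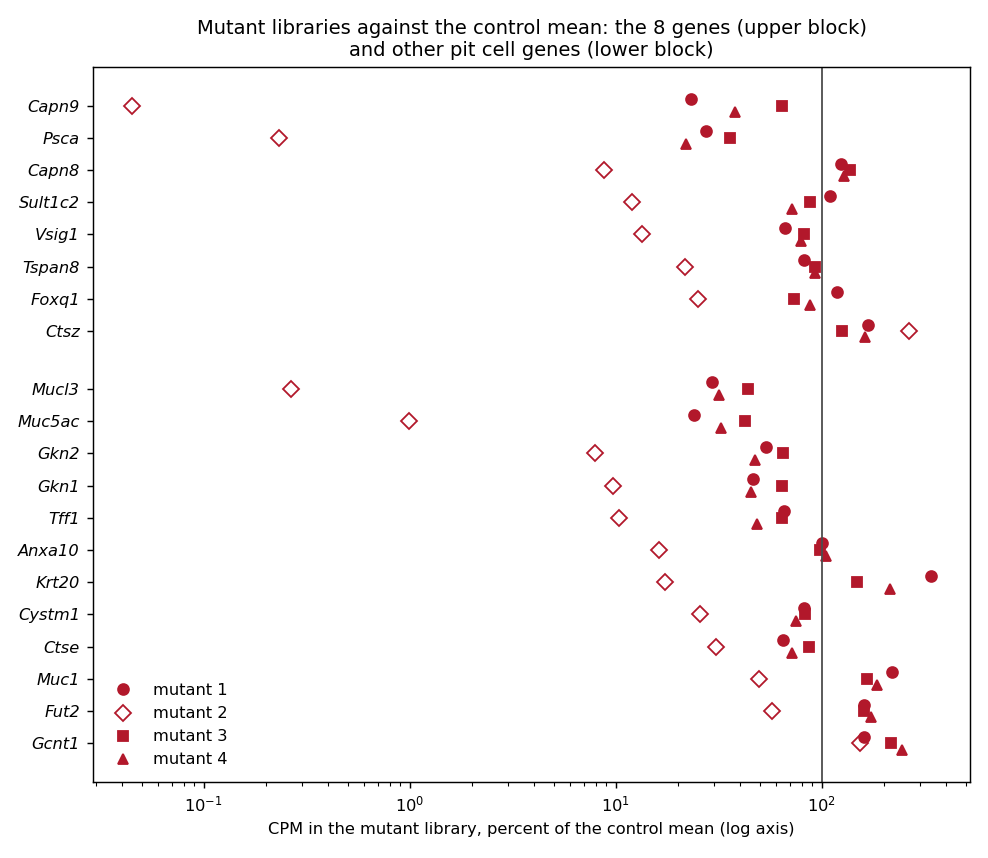
Each row is a gene, with the CPM of each of the 4 mutant libraries as a percent of the control mean on a log axis and a vertical line at the control mean. The open diamond, mutant 2, runs from 0.0452% for Capn9 to 266% for Ctsz among the 8 genes, and mutants 1, 3 and 4 lie between 21.9% and 167% for those genes.

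The direction of several of the 8 genes turned with the scaling of the libraries. Taking column totals as library sizes moved the all-gene median up by 0.70 on the log2 scale. With all libraries Ctsz alone was then called (log2 fold change 1.55), among 59.3% of all genes higher and 4.56% lower. Among the libraries without mutant 2 that shift was 0.68, and Capn8, Sult1c2, Foxq1, Tspan8 and Ctsz were called higher and Psca lower, among 64.1% of all genes called higher and 7.05% lower. In that fit Ctsz at 1.29 and Capn8 at 1.04 were above the median of all genes, 0.71, and Foxq1 at 0.58, Sult1c2 at 0.52 and Tspan8 at 0.51 were below it. Scaling to Epcam, Cdh1, Krt8 and Krt18 without mutant 2 moved that median by -0.39, and there Psca, Capn9, Vsig1, Tspan8, Sult1c2 and Foxq1 were called lower and none higher, among 33.7% lower and 5.76% higher of all genes. Psca was called lower in each of these fits without mutant 2. With mutant 2 included, none of the 8 genes was called under the epithelium scaling, against 2.02% of all genes higher and 5.41% lower.

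**Figure D5:**
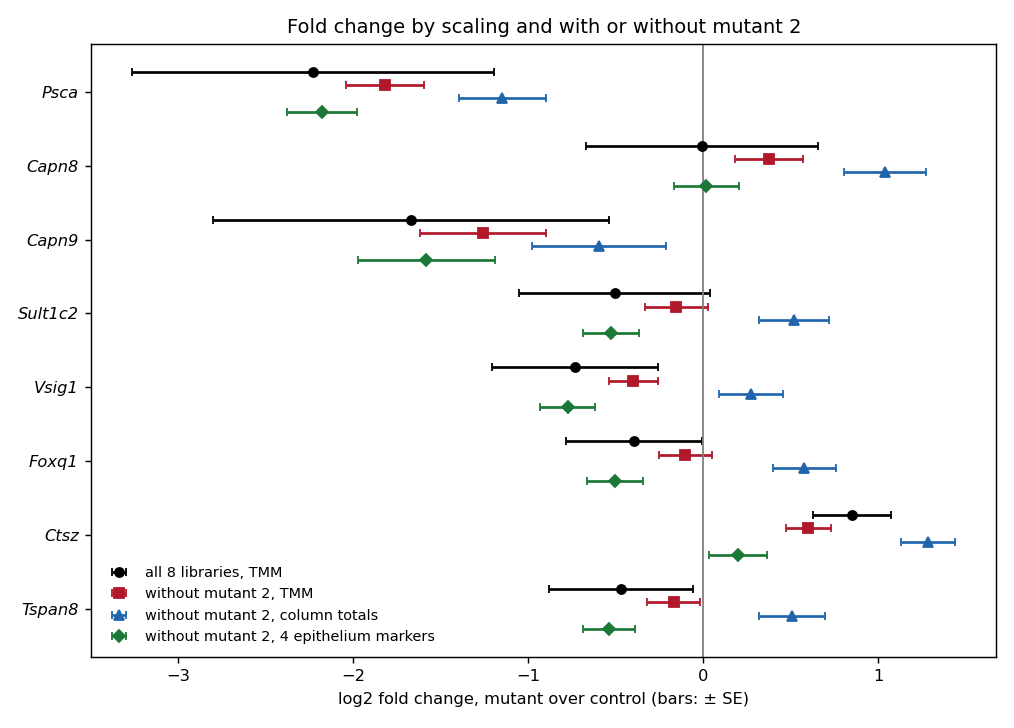
The plot gives the log2 fold change, mutant over control, with bars of 1 SE, for each of the 8 genes with all 8 libraries and in 3 scalings without mutant 2. Psca and Capn9 lie left of 0 and Ctsz right of 0 in all 4 fits, and Sult1c2, Vsig1, Foxq1 and Tspan8 lie right of 0 with column totals alone.

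The same libraries lay at the edges of their group in most of the 8 genes. Mutant 2 was the lowest mutant in 7 of them and mutant 3 the highest mutant in 5. Control 3 was the lowest control in 7 and control 2 the highest control in 5. Control 3 also held the lowest sum of the 4 epithelium markers among controls, 3247 CPM in a range up to 5284 CPM, and its squamous sum of 268 CPM; the part of either in the lower values was not tested.

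For each gene, likeness to every other tested gene of at least 5 mean CPM was measured as the root mean square difference, over the 8 libraries, of log2 CPM centred on the control mean. The closest to Psca were Mucl3 (0.30) and Pdia2 (0.33), a disulfide isomerase gene known from pancreas. Capn13, another calpain, was the closest gene with a standard symbol to Capn8 (0.23). Capn9 had no near match, with Lgals2, a galectin, at 0.65 and Mucl3 at 0.82. Pllp and Rab27b (0.15 and 0.16) were closest to Sult1c2, and Slco2a1, a prostaglandin transporter, and Mllt3 (0.13 and 0.14) to Vsig1. Bdh1 and Acss1, both mitochondrial enzymes (0.13 each), were closest to Foxq1, and Slc22a18 and Syt8 (0.11 and 0.12) to Tspan8. Prcp and Gusb, a lysosomal carboxypeptidase and the lysosomal glucuronidase, were closest to Ctsz (0.10 and 0.13). Mutant 2 was the library farthest from the control mean in all 8 genes, so it has the most weight in this measure.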

How the data were processed

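Raw read counts for Ensembl genes were deposited by the authors, along with their FPKM. The submitters' processing notes name CASAVA, fastp, STAR 2.5 and featureCounts but give them no roles. Neither genome build nor strand setting is given in the sources used here, so overlapping genes are uncertain; the start and end of all 8 genes equalled those in GENCODE M21 (GRCm38). Columns were matched to samples by name, and SCI, a control column, was taken for SC1. Genes passing filterByExpr were scaled with TMM and tested with edgeR 4.0.16 (R 4.3.3; robust quasi-likelihood test, mutant over control, Benjamini-Hochberg adjustment, threshold 0.05), and the code was tested on simulated data. The SE is the fold change over the root of F. FPKM served for levels between genes and carried a library scale within 1.00 to 1.01 of TMM.

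The 8 genes and the lists were chosen with earlier results of these data known, and the promoter motifs with the sequences in view. Named were the 8 genes, 12 other pit cell genes, the called gene with the smallest p in each direction of 7 family lists (where none was called, the gene with the smallest p), and the 2 genes most like each of the 8. Alternatives were DESeq2 1.42.0, limma-voom (limma 3.58.1), RLE factors, column totals, scaling to 4 epithelium markers, other filters, a replicate block, each library or both squamous libraries left out, and limma-trend after log2(FPKM + 1) or log2(FPKM + 0.1). Combinations with mutant 2 left out were added after seeing the data. No 2 libraries of a group were alike to within counting noise (chi-square over degrees of freedom at least 14.2), and each counted as 1 replicate.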

Additional observations from a re-analysis of the deposited data

Results flagged for a closer look

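In 45 named genes, each checked in mutants and in controls, the library at the edge of its group of 4 lay farther from the next than Dixon's 95% critical ratio in 10 of 90 groups, where chance gives about 1 in 20 of independent groups. These groups are not independent: the genes share libraries, and 4 of the 10 fell in genes picked for their likeness to the 8, so the count is not set against that rate. In 9 of the 10 that library was mutant 2. Among the 8 genes it was Capn8 at 4.62 CPM, with the next mutant at 65.3 CPM, and Tspan8 at 130 CPM, with the next mutant at 493 CPM. Among other pit cell genes mutant 2 stood apart at 158 CPM of Anxa10, 81.3 CPM of Fut2 and 201 CPM of Cystm1. It also stood apart at 104 CPM of Ehf, 15.4 CPM of Mllt3, 15.1 CPM of Slc22a18 and 1.96 CPM of a gene without a standard symbol that was the closest match to Capn8. Control 3 stood apart at 140 CPM of Slco2a1, with the next control at 193 CPM. Psca and Capn9, the most depleted of the 8 genes in mutant 2 by share of the control mean, were not past that ratio. The ratio was taken on CPM, not on log2 CPM, so the standing of Psca and Capn9 on the log scale was not tested.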

How the results depend on the processing

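Of the 8 genes, the count that rose was 1 with all libraries and 0 with scaling to epithelium markers, the replicate block, both squamous libraries left out or log2(FPKM + 1) without a filter. Leaving out 1 library gave 0 to 1. The count that fell was 0, with 1 by DESeq2 and by limma-voom and 0 to 3 with 1 library left out. With mutant 2 left out, 5 rose and 1 fell under column totals, 0 rose and 6 fell under the epithelium scaling, and 3 fell by DESeq2. Of the 12 other pit cell genes, 3 rose with column totals and limma-voom, 0 with the epithelium scaling and without both squamous libraries, and 1 to 4 with 1 library left out. The number that fell was 2 by DESeq2, 4 under the epithelium scaling, 5 by limma-voom and 0 to 5 with 1 library left out. With mutant 2 left out, 5 rose and 2 fell under column totals, 3 rose and 7 fell under the epithelium scaling, and 4 rose and 6 fell by DESeq2. In the 7 family lists 78 genes were tested with all libraries. Of these 16 rose and 5 fell, with 38 and 3 under column totals, 6 higher under the epithelium scaling and 17 lower by limma-voom. With 1 library left out 10 to 23 were higher and 5 to 17 lower. With mutant 2 left out, 49 of 79 tested rose under column totals and 29 of 79 fell under the epithelium scaling. In the same libraries 25 of 78 tested rose and 20 fell by DESeq2. Over all genes tested 9.39% rose and 10.8% fell. Under column totals it was 59.3% and 4.56%, and under the epithelium scaling 2.02% and 5.41%. DESeq2 called 4694 of 15291 genes in either direction, and limma-voom 5668 of 15862. Without mutant 2 the shares were 15.2% and 18.3%, with 64.1% and 7.05% under column totals. They were 5.76% and 33.7% under the epithelium scaling and 16.6% and 19.7% by DESeq2. The cause of the shifts between settings was not tested. The 2 ratios kept their direction, with differences of 1.77 to 3.84 for Capn8 to Capn9 and 1.50 to 2.79 for Foxq1 to Muc5ac with 1 library left out.

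With mutant 2 left out and column totals as library sizes, 11 genes turned to higher, by 1.04 for Capn8, 0.52 for Sult1c2, 0.58 for Foxq1, 0.51 for Tspan8, 0.69 for Anxa10, 0.65 for Pllp, 0.51 for Rab27b, 0.54 for Bdh1, 0.75 for Acss1, 0.52 for Slc22a18 and 0.62 for Syt8. In that fit the median of all genes was 0.71, and 64.1% of all genes were called higher and 7.05% lower. Of the 11, Capn8 and Acss1 lay above that median and the others below it. Capn8 turned from -0.00 with all libraries. Over 1035 fits of single named genes, 896 kept their direction and their side of the threshold or were called in neither fit, 88 gained a call, 40 lost one and 11 reversed.

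The replicate numbers did not pair the libraries. The deviations of same-numbered mutants and controls from their group means correlated at 0.04, -0.05, 0.06 and -0.00, and the replicate block gave 1824 genes called, against 3208 without it, and Ctsz lost its call (log2 fold change 0.80, adjusted p = 0.0714). An exact permutation test by sign flips of same-numbered pairs gave p = 0.125 for either ratio, the smallest that 4 pairs allow. Depth limits Capn9 in mutant 2 alone, whose 2 reads lie under a floor of 3.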
